A study of Mus musculus with 5 samples.

Results

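The ligands and receptors of the epidermal growth factor (EGF) family were followed cell class by cell class in mouse colon. The 9 genes, 6 ligands (Areg, Ereg, Hbegf, Tgfa, Btc and Nrg1) and 3 receptors (Egfr, Erbb2 and Erbb3), were chosen by name among the 23173 genes of the count tables, and all 9 were detected in the treated tumors. The series held 5 inDrop libraries, each a droplet-based count of RNA molecules by unique molecular identifier (UMI) in single cells. Of these, 4 came from colon tumors that azoxymethane (AOM, a carcinogen) and dextran sodium sulfate (DSS, which causes colitis) had raised in wild-type (WT) mice, all of which then received 5-fluorouracil (5FU) and Irinotecan. They were collected on day 1 (replicates 1 and 2), day 3 and day 6 after treatment. The fifth came from the colon of an untreated WT mouse, prepared by the fibroblast dissociation. An untreated tumor was not analysed here, so the drugs could not be compared with no drugs, and tumor, drugs and dissociation cannot be told apart between the treated libraries and the normal one. The study's methods describe mice on a C57BL/6J or mixed C57BL/6J;129 background and count different mice as biological replicates. How many mice entered each library, and their ages, were not given in the labels.

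The members work as a network of secreted signals and paired receptors. Amphiregulin (Areg), epiregulin (Ereg), heparin-binding EGF (Hbegf), transforming growth factor alpha (Tgfa) and betacellulin (Btc) are made as membrane-bound precursors, are cut free by ADAM proteases and bind the EGF receptor (Egfr). Neuregulin 1 (Nrg1) does not bind Egfr but binds Erbb3, a receptor with very weak kinase activity that signals by pairing with another ErbB receptor, often Erbb2, which itself has no known ligand. In the intestine, these signals maintain proliferation of the crypt and the repair of damaged epithelium.

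Cells with at least 500 detected genes and at most 15% of UMIs from mitochondrial genes were kept, 748 and 2403 on day 1, 1419 on day 3, 2826 on day 6 and 1095 from the normal colon. Library totals ran from 5132360 to 16904947 UMIs and median depths from 2903 to 3601 UMIs a cell. Between 4 and 41 cell barcodes were shared by a pair of libraries. Clusters of cells were named from marker lists, and raw counts were then summed over the cells of each class in each library. The treated tumors held 3212 columnar cells, 1251 squamous-like cells, which carried Krt5 and Krt14, keratins of stratified epithelium, in each library, 139 cells like cancer-associated fibroblasts (CAF-like) and 344 macrophage-like cells, of which only 4 came from day 3. All 11 columnar markers were detected in the columnar cells of each treated library, and all 12 squamous markers in the squamous-like cells. The columnar class was made up of different clusters in different libraries. On day 3, 634 of its 871 cells came from a cluster with Gpx2 and Cldn2 among its leading genes. Columnar markers there exceeded those of non-epithelial cells by a mean of only 0.35 on the log2 scale. In the other columnar clusters named against such cells the mean was 1.09 to 1.81. That cluster is the one called closest to free RNA below. A cluster of 570 cells with the Wnt antagonists Wif1, Dkk2 and Nkd1 among its leading genes (147, 386, 21 and 16 cells) carried too few columnar markers to be named and is given beside the others.

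Levels below are CPM, the counts of a gene per 1000000 UMIs of a class in a library. The 4 treated libraries are given in the order day 1 replicate 1, day 1 replicate 2, day 3 and day 6, and brackets hold 95% exact Poisson intervals, which cover counting error only. Comparisons between classes were paired within libraries (n = 4) and tested with edgeR's quasi-likelihood test over all genes that passed a low-count filter, with Benjamini-Hochberg adjustment. A gene was called at an adjusted p under 0.05.

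Among the ligands, Nrg1 separated the cell classes most widely. CAF-like cells carried 916, 656, 184 and 1075 CPM, macrophage-like cells 292, 228 and 216 CPM in the 3 libraries that held enough of them, and squamous-like cells 46.1, 136, 29.8 and 67.6 CPM. Columnar cells carried 3.10, 3.26, 2.38 and 3.10 CPM (95% Poisson interval of the highest, 2.06 to 4.89). Each squamous-like value was above each columnar one, and within every library where the 3 classes could be measured the order was CAF-like, macrophage-like, squamous-like and columnar.

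**Figure D1:**
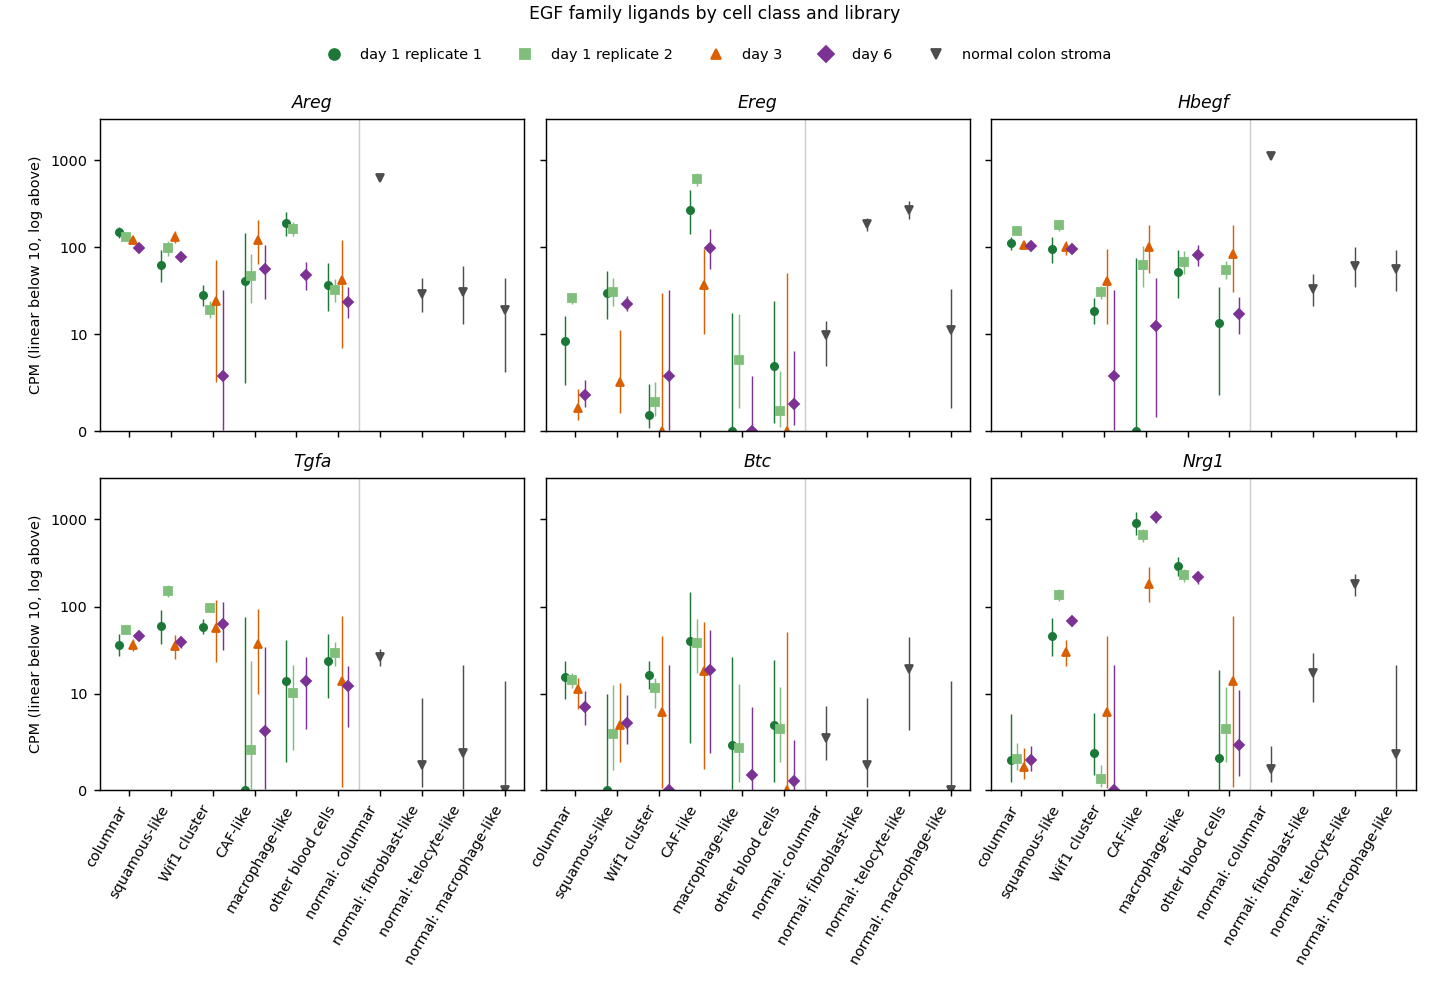
Level of each of the 6 ligands (CPM, on an axis that is linear below 10 and logarithmic above) in the main cell classes, with 1 point for each library and 95% Poisson intervals as bars. Nrg1 reached 184 to 1075 CPM in the CAF-like cells of treated tumors and 2.38 to 3.26 CPM in their columnar cells, while Areg and Hbegf were highest in the normal columnar cells, at 617 and 1108 CPM.

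The difference in Nrg1 exceeded the spread between libraries in each comparison with columnar cells. In squamous-like cells Nrg1 was higher by 4.56 ± 0.34 (log2, SE; edgeR adjusted p = 0.000189). In CAF-like cells it was higher by 7.71 ± 0.38 (edgeR adjusted p = 1.27e-09) and in macrophage-like cells by 6.27 ± 0.24 (edgeR adjusted p = 3.29e-08). Against these, Nrg1 in the other blood cells, which served as a measure of free RNA, was 3.38, 6.35, 13.8 and 4.71 CPM, and in the Wif1 cluster 3.86, 1.15, 8.14 and 0 CPM.

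The share of cells with a Nrg1 UMI followed the same order. After each cell was thinned to 1000 UMIs, 42.9%, 28.2%, 13.3% and 35.3% of CAF-like cells held one. Among squamous-like cells 7.55%, 7.94%, 1.76% and 5.27% did, against 0.758%, 0%, 0.344% and 0.326% of columnar cells and 1.06%, 0.388%, 3.45% and 0.613% of other blood cells. On day 3 the squamous-like share thus lay below that of blood cells, of which there were 29. Without thinning, squamous-like shares were 13.2%, 21.2%, 10.2% and 19.2% at median depths of 2528 to 5700 UMIs, and blood cell shares 1.06%, 1.55%, 3.45% and 0.898% at median depths of 1993 to 2345 UMIs.

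The squamous-like cells also carried traces of fibroblast markers. Summed over 8 fibroblast markers, squamous-like cells had 178 to 306 CPM, columnar cells 64.0 to 181 CPM and CAF-like cells 9420 to 37917 CPM. Per 100 fibroblast marker counts, CAF-like cells held 2.42, 3.54, 1.95 and 4.52 Nrg1 counts. The same ratio in squamous-like cells was 22.1, 74.2, 9.72 and 38.1, above the CAF-like ratio in each of the 4 libraries. In macrophage-like cells it was 105, 172 and 311. The ratio in neutrophil-like cells, which served as the background, was 1.37, 3.11, 3.13 and 0. It rested on 1, 8, 1 and 0 Nrg1 counts, the last beside only 5 marker counts. The part of RNA from macrophage-like cells in the squamous-like ratios was not tested.

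Within the squamous-like class, Nrg1 on day 1 and day 6 was highest in the cluster led by the basal keratinocyte genes Trp63, Krt17 and Col17a1. Only clusters with at least 10 cells in a library were read. That cluster carried 95.8 CPM (14 cells) and 270.2 CPM (48 cells) on day 1 and 110.1 CPM (303 cells) on day 6. The cluster led by Ltf and Krt13, a keratin of differentiated stratified epithelium, carried 11.1 CPM (3 counts from 16 cells) in day 1 replicate 2 and 36.5 CPM on day 6. The cluster led by Krt16 and Krt6a carried 18.4 CPM in day 1 replicate 2. On day 3 the Trp63-led cluster held only 3 cells. There 33 of the 35 Nrg1 counts of the class lay in the cluster led by Dmkn and Pitx1, at 29.7 CPM. Within the macrophage-like class, the cluster led by Lyz2, Thbs1, Chil3 and Il1b carried 466, 282 and 329 CPM on day 1 and day 6, and the cluster led by C1qa and Apoe, genes of tissue macrophages, 0, 21.2 and 73.4 CPM. These cluster values are descriptions without a test, since the same cells made the clusters, although the members were left out of the genes used for clustering.

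**Figure D2:**
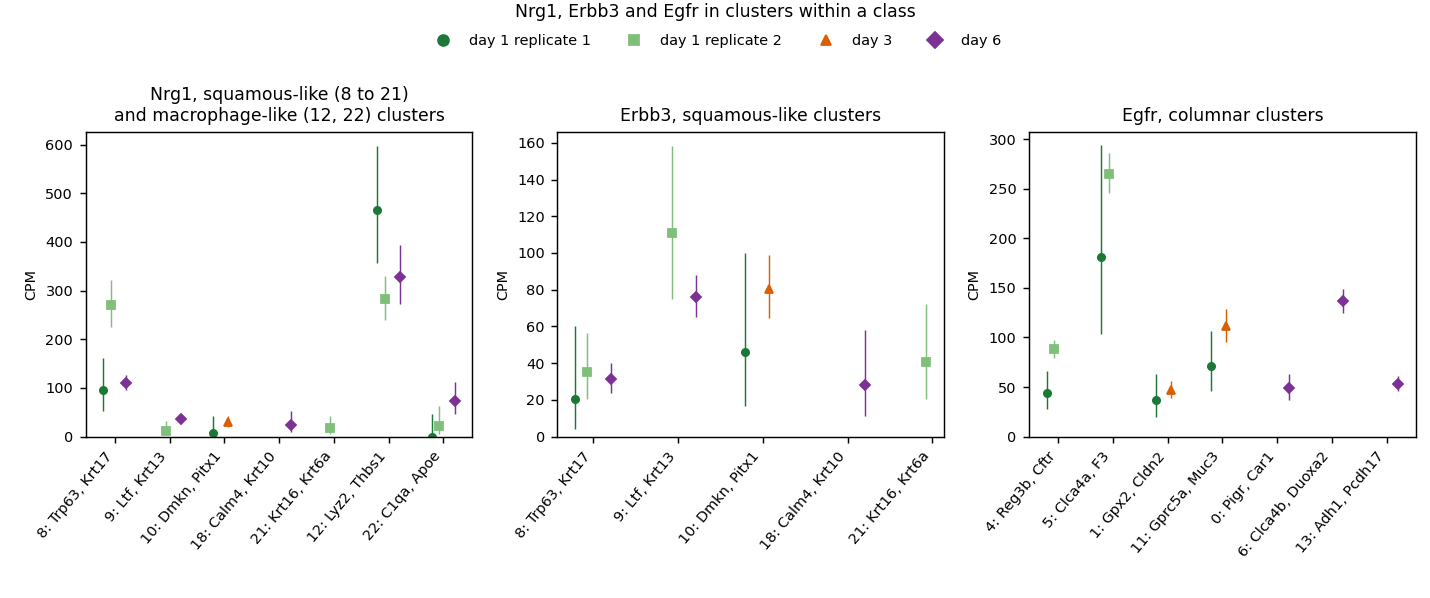
Levels (CPM, linear axes from 0) of Nrg1 in squamous-like and macrophage-like clusters, Erbb3 in squamous-like clusters and Egfr in columnar clusters, each cluster named by a pair of its leading genes, with 1 point for each library that held at least 10 of its cells and 95% Poisson intervals as bars. The squamous-like cluster led by Trp63 stood at 95.8 to 270.2 CPM of Nrg1 and 20.5 to 35.3 CPM of Erbb3, and the one led by Ltf and Krt13 at 11.1 to 36.5 CPM of Nrg1 and 75.9 to 111 CPM of Erbb3.

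Ereg was highest in CAF-like cells in each treated library. CAF-like cells carried 265, 606, 36.8 and 98.8 CPM (13, 144, 4 and 16 counts), with day 1 above the later days. Columnar cells carried 9.30, 25.8, 2.38 and 3.70 CPM. Ereg was higher in CAF-like cells by 4.59 ± 0.34 (log2, SE; edgeR adjusted p = 4.96e-08). Macrophage-like cells held 0, 7.34 and 0 CPM, where 3 counts would be 14.1, 4.41 and 4.63 CPM.

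Squamous-like cells carried 29.8, 31.0, 5.10 and 22.4 CPM of Ereg, above the columnar cells of the same library in 4 of 4 libraries. The groups overlapped across libraries, since columnar cells of day 1 replicate 2 exceeded squamous-like cells of day 3 and day 6. The difference was 1.45 ± 0.38 (log2, SE; edgeR adjusted p = 0.0249). It was no longer called in 4 of 13 alternatives, namely without day 1 replicate 1 (edgeR adjusted p = 0.0832), without day 6 (0.131), without the pairing by library (0.426) and with only cells whose highest marker score was that of their own class (0.0773), and rested on 6 to 103 Ereg counts a library in squamous-like cells.

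Areg, which lies beside Ereg and Btc on mouse chromosome 5, was detected in each main class of the treated tumors. In the GRCm38 annotation the 3 genes span chr5:91074622-91402994, with Ereg ending 45.953 kb before Areg begins (chr5:91139599-91148432, forward strand). Columnar cells carried 149, 131, 120.1 and 99.1 CPM of Areg, squamous-like cells 62.3, 97.7, 133 and 76.6 CPM and CAF-like cells 40.7, 46.3, 119.5 and 55.6 CPM. The CAF-like values rested on 2, 11, 13 and 9 counts. The classes overlapped, and Areg was not called in squamous-like cells (log2 difference -0.38 ± 0.22, SE; edgeR adjusted p = 0.283) or in CAF-like cells (-0.92; edgeR adjusted p = 0.0765), although in each it was called lower under some alternatives, such as only cells with the highest own marker score in squamous-like cells (edgeR adjusted p = 0.0325) and no count filter in CAF-like cells (0.00780). In macrophage-like cells Areg was at 188 and 162 CPM on day 1 and 47.8 CPM on day 6, above columnar cells on day 1 and below them on day 6 (0.03; edgeR adjusted p = 0.949). Without day 6 the difference was 0.56 and called (edgeR adjusted p = 0.0184).

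Areg and Egfr were higher in the same cluster of the columnar pairs given below. The 250 bases before the start of each gene are therefore shown (RefSeq, GRCm38.p6). The promoter table matched 5 of the 9 members, all but Ereg, Hbegf, Nrg1 and Erbb3. Both strands were searched for the letters of a promoter box near the start (TATAAA), the cyclic AMP response element (TGACGTCA), the AP-1 motif (TGANTCA) and the GC box (GGGCGG). Capitals mark the matches, and no match in the sequences shown overlaps another. The Areg promoter, chr5:91139349-91139598 on the forward strand, held TATAAA, TGACGTCA and GGGCGG beginning 31, 61 and 52 bases before the start. The Egfr promoter, chr11:16751953-16752202 on the forward strand, held a GC box match on 1 strand, beginning 9 bases before the start. Tgfa held 2 matches of GGGCGG, and Btc and Erbb2 held none of the 4 motifs. Of 32851 promoter windows of this length, 12.4% held TATAAA, 1.55% TGACGTCA, 6.75% TGANTCA and 32.7% GGGCGG. A match is a match of letters and not a measured binding site.
Areg: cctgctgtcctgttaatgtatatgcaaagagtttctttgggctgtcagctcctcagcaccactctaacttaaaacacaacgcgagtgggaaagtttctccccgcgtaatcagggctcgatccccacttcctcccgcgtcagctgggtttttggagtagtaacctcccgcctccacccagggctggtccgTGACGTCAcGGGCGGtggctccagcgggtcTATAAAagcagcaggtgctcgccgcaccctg
Egfr: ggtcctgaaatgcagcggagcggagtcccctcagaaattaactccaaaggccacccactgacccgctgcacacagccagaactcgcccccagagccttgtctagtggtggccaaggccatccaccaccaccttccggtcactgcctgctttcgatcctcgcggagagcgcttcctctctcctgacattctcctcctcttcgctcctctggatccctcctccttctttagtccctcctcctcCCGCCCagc

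Hbegf, like Areg, was carried by both columnar and squamous-like cells. Columnar cells carried 112, 154, 105 and 104 CPM and squamous-like cells 94.8, 180.0, 99.5 and 94.4 CPM, overlapping fully (log2 difference -0.00 ± 0.17, SE; edgeR adjusted p = 0.998). CAF-like cells carried 0, 63.1, 101 and 12.4 CPM, where 3 counts would be 61.1 CPM in day 1 replicate 1. Hbegf was lower in CAF-like cells by 1.41 ± 0.46 on the log2 scale (edgeR adjusted p = 0.0419), a call lost in 7 of 13 alternatives. These were leaving out day 1 replicate 1 (edgeR adjusted p = 0.0563), day 1 replicate 2 (0.0815) or day 6 (0.125), no pairing by library (0.188), removal of the highest doublet scores (0.0765), only cells with the highest own marker score (0.229) and the Wif1 cluster counted as columnar (0.0977). Macrophage-like cells carried 51.8, 67.6 and 81.8 CPM and fell by 0.73 ± 0.22 on the log2 scale against columnar cells (edgeR adjusted p = 0.0224), a call lost in 6 of 12 alternatives. These were leaving out day 1 replicate 1 (edgeR adjusted p = 0.0612) or day 1 replicate 2 (0.200), no pairing by library (0.123), a finer clustering (0.0810), the Wif1 cluster counted as columnar (0.588) and DESeq2 (0.0745).

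Tgfa was higher in the Wif1 cluster than in columnar cells of each treated library. The Wif1 cluster carried 59.0, 97.2, 57.0 and 62.9 CPM, and columnar cells 36.4, 53.4, 35.99 and 46.2 CPM. This difference was not tested. Squamous-like cells carried 59.6, 152, 34.9 and 38.93 CPM, higher than columnar cells on day 1 and lower later (log2 difference 0.52 ± 0.34, SE; edgeR adjusted p = 0.336). In day 1 replicate 2, the cluster led by Ltf and Krt13 was at 233 CPM, the Trp63-led cluster at 129 CPM and the cluster led by Krt16 and Krt6a at 114 CPM, each above the columnar cells, and the first held 63 of the 157 Tgfa counts of the class. CAF-like cells carried 0, 4.21, 36.8 and 6.18 CPM, from only 0, 1, 4 and 1 counts. That was a fall of 2.01 ± 0.65 on the log2 scale against columnar cells (edgeR adjusted p = 0.0408), a call lost in 5 of 13 alternatives. These were leaving out day 1 replicate 2 (edgeR adjusted p = 0.280) or day 6 (0.127), no pairing by library (0.0853), removal of the highest doublet scores (0.0752) and only cells with the highest own marker score (0.489). In macrophage-like cells Tgfa was at 14.1, 10.3 and 13.9 CPM and fell by 1.83 ± 0.32 on the log2 scale (edgeR adjusted p = 0.00125).

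Btc had the fewest counts of the ligands and was not called in squamous-like or CAF-like cells. Columnar cells carried 15.5, 14.3, 11.4 and 8.60 CPM, and squamous-like cells 0, 5.81, 6.80 and 6.96 CPM, where 3 counts would be 8.13 CPM in day 1 replicate 1. Squamous-like values lay below the columnar ones in each library (log2 difference -0.93 ± 0.42, SE; edgeR adjusted p = 0.161). CAF-like cells carried 40.7, 37.9, 18.4 and 18.5 CPM, above columnar cells in 4 of 4 libraries (1.21; edgeR adjusted p = 0.132). These values rested on 2, 9, 2 and 3 counts, where 3 counts would be 61.1, 12.6, 27.6 and 18.5 CPM.

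The day 3 CAF-like cells stood apart from those of the other libraries. Their Nrg1 and Ereg were the lowest of the 4, and their Areg, Hbegf, Tgfa and Erbb2 the highest. The same 30 cells had the lowest sum of fibroblast markers (9420 CPM) and 6286 CPM of columnar markers. The part of columnar RNA in the member values of day 3 was not tested. Without day 3, Tgfa fell by 3.43 on the log2 scale in CAF-like cells (edgeR adjusted p = 0.00282). Areg, which fell by 1.31, was called as well (edgeR adjusted p = 0.0198). In that fit 6 of the 9 members were called, beside 21.3% of 9043 genes, where 17.8% of genes were called with day 3 kept.

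Of the receptors, Erbb3 was the one called lower than in columnar cells in each class comparison. Columnar cells carried 125, 103, 119.6 and 113 CPM and squamous-like cells 51.5, 56.1, 79.9 and 53.9 CPM, and the groups did not overlap. Erbb3 fell by 0.89 ± 0.19 on the log2 scale in squamous-like cells (edgeR adjusted p = 0.0102), and the difference in log2(CPM + 10) within a library lay between -1.13 and -0.53 in 4 of 4 libraries. Without the pairing by library the fall of Erbb3 was not called (edgeR adjusted p = 0.0786). CAF-like cells carried 81.4, 21.04, 36.8 and 6.18 CPM, from only 4, 5, 4 and 1 counts, a fall of 2.06 ± 0.45 on the log2 scale (edgeR adjusted p = 0.00341). Macrophage-like cells carried 33.0, 17.6 and 13.9 CPM, a fall of 2.45 ± 0.29 (edgeR adjusted p = 8.30e-05). The Wif1 cluster carried 86.0, 57.8, 65.1 and 57.2 CPM, below the columnar cells in each library. In other blood cells, Erbb3 was at 47.3, 31.8, 69.2 and 27.3 CPM. The squamous-like values lay above these in each library, most narrowly in day 1 replicate 1 and on day 3. There they rested on 19 counts against 14 in blood cells, and on 94 against 5. Whether squamous-like cells exceeded the blood cells in Erbb3 was not tested. Cells with Paneth cell markers carried 59.5 and 60.8 CPM on day 1 and 111 CPM on day 3, near the columnar value of day 3.

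**Figure D3:**
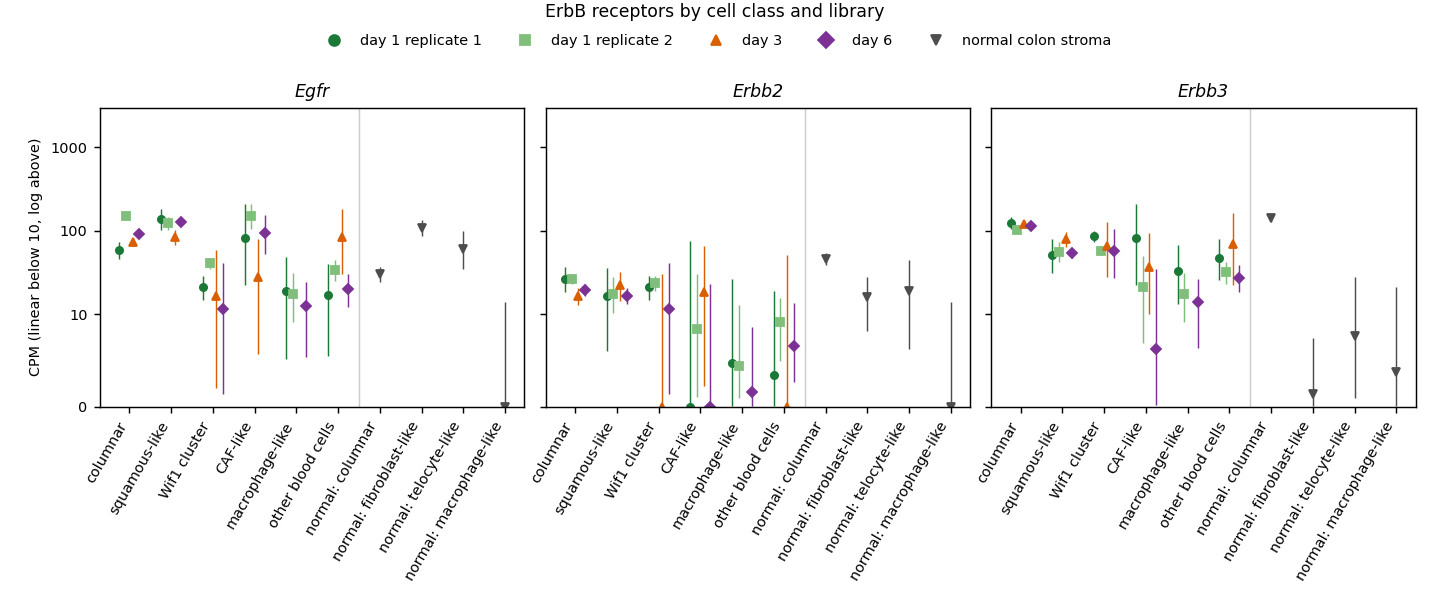
Level of the 3 receptors (CPM, on an axis that is linear below 10 and logarithmic above) in the main cell classes, with 1 point for each library and 95% Poisson intervals as bars. Erbb3 lay between 103 and 125 CPM in the columnar cells of treated tumors and between 51.5 and 79.9 CPM in their squamous-like cells.

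Erbb3 was lower and Nrg1 higher in squamous-like cells, and within that class some clusters differed in the same way. In the Trp63-led cluster Erbb3 was at 20.5 and 35.3 CPM on day 1 and 31.2 CPM on day 6, where Nrg1 was highest. In the Ltf- and Krt13-led cluster Erbb3 was at 111 CPM in day 1 replicate 2 and 75.9 CPM on day 6, where Nrg1 was low. Both were low in the cluster led by Calm4 and Krt10, at 28.0 CPM of Erbb3 and 24.0 CPM of Nrg1 on day 6.

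Egfr was present in epithelium and fibroblasts alike. Columnar cells carried 58.1, 149, 73.6 and 90.6 CPM, squamous-like cells 138, 124, 83.3 and 128 CPM and CAF-like cells 81.4, 151, 27.6 and 92.6 CPM, and these ranges overlapped. Egfr was not called in squamous-like cells (log2 difference 0.42 ± 0.22, SE; edgeR adjusted p = 0.236) or in CAF-like cells (-0.13; edgeR adjusted p = 0.859). Macrophage-like cells carried 18.8, 17.6 and 12.3 CPM and fell by 2.66 ± 0.31 on the log2 scale (edgeR adjusted p = 8.17e-05). Other blood cells were at 16.9, 33.9, 83.1 and 19.8 CPM, so that on day 3 the blood cell value, from 29 cells, reached the columnar one.

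Within the columnar class, a pair of clusters was compared in day 1 replicate 2 and another on day 6. In each pair, Egfr, Areg and Hbegf were higher in the same cluster. In day 1 replicate 2 the cluster led by Clca4a and F3 carried 266 CPM of Egfr, 191 CPM of Areg and 264 CPM of Hbegf. The cluster led by Reg3b and Cftr carried 88.1, 94.3 and 91.4 CPM of these genes in that library. On day 6 the cluster led by Clca4b and Duoxa2 carried 137 CPM of Egfr, 169 CPM of Areg and 169 CPM of Hbegf. The largest columnar cluster of day 6 carried 48.6, 42.6 and 65.2 CPM. These cluster values carry no test, and Areg and Hbegf of the other columnar clusters and libraries are not given here. Over 37 sums of a class in a library, the Pearson correlation of Areg was 0.34 with Egfr and 0.42 with Hbegf.

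Erbb2 was called in macrophage-like cells and in neither of the other comparisons with columnar cells. Columnar cells carried 26.3, 26.5, 16.4 and 19.5 CPM and squamous-like cells 16.3, 17.4, 22.1 and 16.5 CPM, which overlapped (log2 difference -0.20 ± 0.26, SE; edgeR adjusted p = 0.664). CAF-like cells carried 0, 8.42, 18.4 and 0 CPM, where 3 counts would be 61.1 and 18.5 CPM in the libraries at 0. Macrophage-like cells carried 4.71, 4.41 and 1.54 CPM, a fall of 2.74 ± 0.52 on the log2 scale (edgeR adjusted p = 0.00187).

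The balance of Egfr to Erbb3, a ratio chosen after the values were seen and given without a test, moved toward Egfr in squamous-like cells of each library. Per Erbb3 count, columnar cells held 0.466, 1.45, 0.616 and 0.802 Egfr counts and squamous-like cells 2.68, 2.21, 1.04 and 2.37. The squamous-like ratio was 5.76, 1.53, 1.69 and 2.96 times the columnar one. Other blood cells stood at 0.357, 1.07, 1.20 and 0.724.

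**Figure D4:**
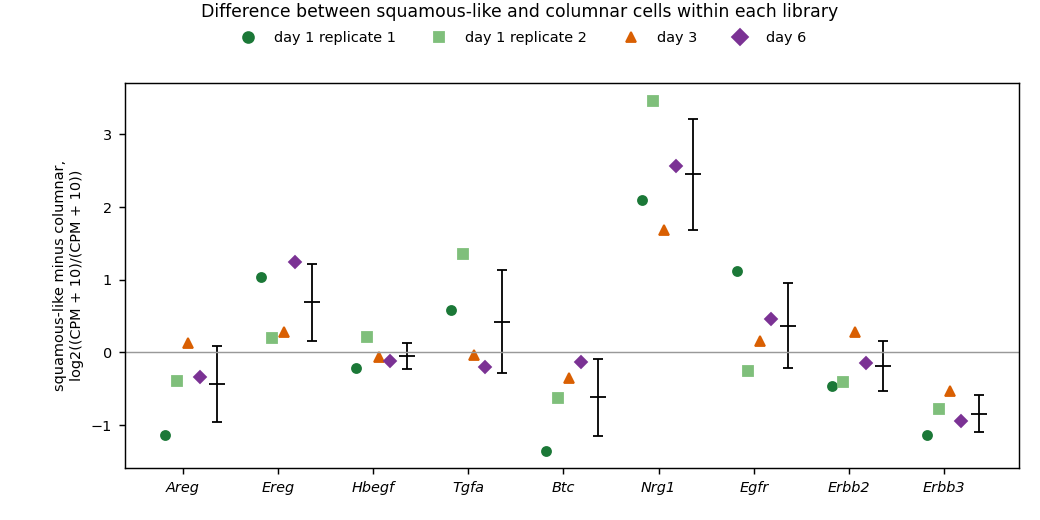
Difference between squamous-like and columnar cells of the same library in log2(CPM + 10) for each member, with 1 point for each of the 4 treated libraries and a bar for their mean ± SD. All 4 Nrg1 points lay between 1.68 and 3.47 and all 4 Erbb3 points between -1.13 and -0.53.

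Over all genes, 22% of the 11559 tested were called between squamous-like and columnar cells, and 3 of the 9 members were, Nrg1 and Ereg higher, as were 10.5% of genes, and Erbb3 lower, as were 11.4%. In CAF-like against columnar cells, 17.8% of 8763 genes were called and 5 of the 9 members, Nrg1 and Ereg higher, as were 9.8% of genes, and Hbegf, Tgfa and Erbb3 lower, as were 7.97%. In macrophage-like against columnar cells, 38.2% of 9581 genes were called and 6 of the 7 members that passed the filter. Those were Nrg1, higher, as were 18.8% of genes, and Hbegf, Tgfa, Egfr, Erbb2 and Erbb3, lower, as were 19.4%, while Ereg and Btc did not pass. These p-values measure the spread between 4 libraries, or 3 for macrophage-like cells. Scrublet, set to expect 6% doublets, called only 19 of 8491 cells. How many doublets it missed was not tested. Doublets were not removed, except in an alternative without the 6% of cells with the highest scores.

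The late libraries (day 3 and day 6) were compared with the early ones (the 2 of day 1) within each epithelial class. In columnar cells 0% of 12831 genes and 0 members were called by edgeR, with 780 genes at an unadjusted p under 0.05 and 53 genes called by DESeq2, no member among them. In squamous-like cells 0% of 9789 genes and 0 members were called by edgeR, with 390 genes at an unadjusted p under 0.05 and 20 called by DESeq2, again with no member. With 2 libraries a side and different clusters in different libraries, both contrasts compare mixtures of clusters. Of the squamous-like cells, 121 of 189 in day 1 replicate 2 came from the cluster led by Krt16 and Krt6a and 273 of 284 on day 3 from the cluster led by Dmkn and Pitx1, while day 6 was made up of those led by Trp63, by Ltf and Krt13 and by Calm4 and Krt10.

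Ereg in columnar cells had the largest late against early difference among the members, -2.24 ± 0.65 (log2, SE; edgeR adjusted p = 0.777). The difference in log2(CPM + 10) was -0.64 between the pair of single-index libraries and -1.38 between the pair of dual-index libraries. In squamous-like cells the largest was Tgfa, -1.42 ± 0.56 (log2, SE; edgeR adjusted p = 0.998), at -0.63 and -1.73 within the same pairs. Ereg in squamous-like cells was lower late in both pairs as well, at -1.40 and -0.34.

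**Figure D5:**
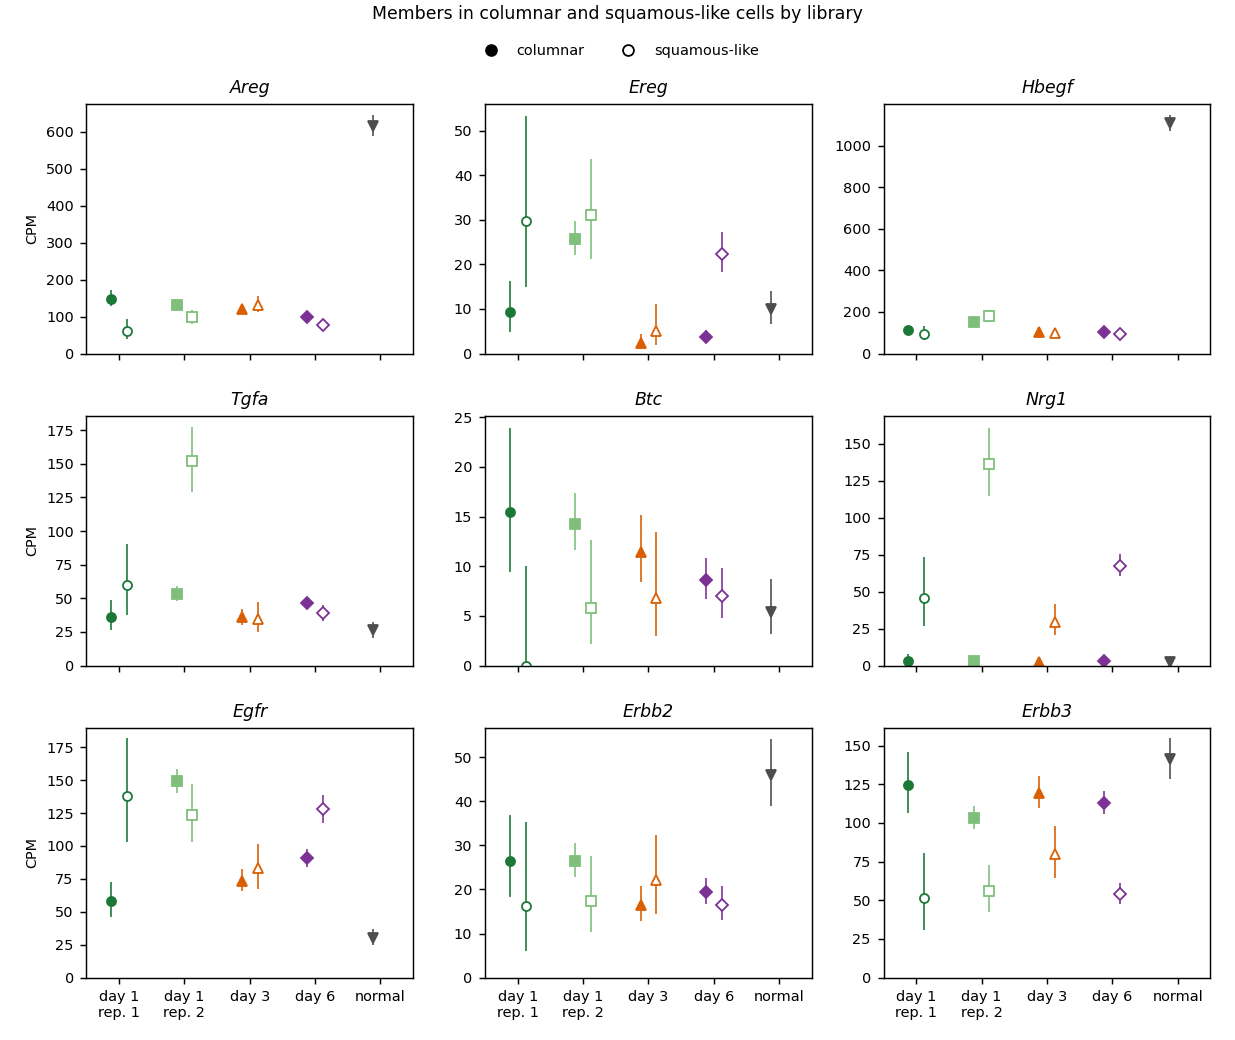
Levels of the 9 members (CPM, linear axes from 0) in the columnar cells (filled points) and squamous-like cells (open points) of each treated library and in the columnar cells of the normal library, with 95% Poisson intervals as bars. The normal columnar cells lay apart for Areg (617 CPM) and Hbegf (1108 CPM), and no member was called between early and late libraries.

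The normal library, with 1 sample and hence no test, differed from the tumors in its ligands. Its 330 columnar cells carried 617 CPM of Areg (95% Poisson interval 589 to 645) and 1108 CPM of Hbegf (1072 to 1146), against at most 149 and 154 CPM in treated columnar cells. Thinned to 1000 UMIs, 47.1% of normal columnar cells held an Areg UMI and 61.9% a Hbegf UMI. Among treated columnar cells 7.08% to 10.6% held Areg and 7.57% to 12.1% held Hbegf, and in the normal library's other blood cells the shares were 4.23% and 2.82%. Unthinned, the normal columnar shares were 80.9% and 88.2% at a median depth of 6026 UMIs, and those of blood cells 11.7% and 2.60% at 2235 UMIs.

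Goblet-like cells of the normal library carried 221 CPM of Areg and 592 CPM of Hbegf. Between normal columnar clusters, the one led by Tgm3 and Car1, genes of surface colonocytes, held 866 CPM of Areg and 1309.6 CPM of Hbegf, and the one with Clca3b and Top2a, a gene of dividing cells, 343 and 887 CPM. Immediate early genes stood high in the same cells, with Fos at 4147 CPM and Egr1 at 1152 CPM in normal columnar cells against 245 to 391 CPM of Fos and 27.5 to 52.7 CPM of Egr1 in the treated ones. Errfi1, an Egfr inhibitor induced by Egfr itself, was at 311 CPM against 62.0 to 147 CPM. The part of dissociation in these levels was not tested.

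The other members differed less in the normal epithelium. Tgfa was at 26.2 CPM, Btc at 5.44 CPM and Egfr at 30.4 CPM, each under all 4 treated columnar values. Erbb2, at 46.0 CPM, and Erbb3, at 141 CPM, lay above all 4. Egfr counts per Erbb3 count were 0.215, under the 0.466 to 1.45 of treated columnar cells. Nrg1 in normal columnar cells, at 2.24 CPM, lay just under the treated range.

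In the normal stroma, Nrg1 was highest in telocyte-like cells. Telocyte-like cells, subepithelial cells that line the crypt, carried 179.6 CPM of Nrg1, while the 264 fibroblast-like cells carried 17.2 CPM, against 184 to 1075 CPM in the CAF-like cells of treated tumors. Normal macrophage-like cells carried 3.78 CPM (1 count in 70 cells), against 216 to 292 CPM in treated ones. Leading genes of these normal cells included Lyz2 and Il1b as well as C1qa. In the treated cluster led by C1qa and Apoe, Nrg1 was at 0 and 21.2 CPM on day 1 and 73.4 CPM on day 6. The part of cluster make-up in the contrast with treated macrophage-like cells was not tested. Ereg was broadly stromal, at 184 CPM in fibroblast-like, 268 CPM in telocyte-like, 151 CPM in myofibroblast-like and 163 CPM in pericyte-like cells. Egfr was at 108 CPM in fibroblast-like and 61.1 CPM in telocyte-like cells. Erbb3 was highest in the 18 glial-like cells, at 386 CPM.

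Around the receptors, 37 further genes of the pathway were read from lists. Squamous-like cells had lower Errfi1, at 29.8, 57.1, 35.7 and 31.5 CPM against 74.4, 147, 62.0 and 87.9 CPM in columnar cells (a fall of 1.21 ± 0.20 on the log2 scale; edgeR adjusted p = 0.00342). Lrig1, an inhibitor that promotes turnover of ErbB receptors, fell by 1.44 ± 0.40 on the log2 scale (edgeR adjusted p = 0.0305). Among 11 tested inhibitors of the pathway these 2 fell and Spred1, an inhibitor of the Ras-ERK cascade, rose by 0.64, beside 22% of all genes called in either direction.

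Erbb4, the fourth ErbB receptor, fell by 1.49 ± 0.35 on the log2 scale (edgeR adjusted p = 0.0151), at 2.71, 7.74, 3.40 and 2.39 CPM in squamous-like and 17.8, 29.5, 10.2 and 4.06 CPM in columnar cells. It was the 1 gene called among the 2 tested of 6 other ligands and receptors. Of 5 sheddases and their partners, Rhbdf1, a partner of ADAM17, rose by 0.75 (edgeR adjusted p = 0.0282) and the other 4 were not called. The 6 adaptors and ligases had unadjusted edgeR p-values of 0.0731 to 0.809, and of the 8 ERK response genes Fos alone was called, with a fall of 0.90 on the log2 scale. The median difference was -1.03 over the other ligands and receptors, -0.06 over sheddases, -0.13 over adaptors, -0.34 over inhibitors and 0.16 over ERK response genes, beside 0.00 over all 11559 genes.

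In CAF-like cells, 4 of the 10 tested inhibitors rose against columnar cells, namely Spred1, Spry1, Spry2 and Spry4, feedback inhibitors of receptor tyrosine kinase signaling, where 9.8% of all genes were called higher. Of the 8 ERK response genes, Egr1, Fosl1, Ier3 and Phlda1 rose and Fos fell (median 0.62, beside -0.08 over all genes). In macrophage-like cells, Adam17, Adam9 and Rhbdf2, a partner of ADAM17 in immune cells, rose and Rhbdf1 fell. There 4 of 6 adaptors and ligases rose (Cbl, Cblb, Gab1 and Grb2), with a median of 0.98 beside -0.08 over all genes, of which 18.8% were called higher. Late against early, the listed genes were not called in either class by edgeR. At an unadjusted p under 0.05 stood 4 of them in columnar cells (Erbb4, Cblb, Sos1 and Spry4), beside 780 of all 12831 genes. In squamous-like cells 2 did (Lrig3 and Fosl1), beside 390 of all 9789 genes. Not all of the 37 listed genes passed the count filter.

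Across 37 sums of a class in a library, which share libraries and depth, the genes most like each member by Pearson correlation of log2(CPM + 10) were named from 7925 genes. For Nrg1 they were Lrp1 (r = 0.91), Axl (0.91) and Inhba (0.90), and for Ereg Dio2 (0.88), Wnt5a (0.84) and Fgf7 (0.84). For Erbb3 they were Arhgef16 (0.86), Larp1b (0.84) and Lsr (0.82), and for Hbegf Anxa3 (0.84), Cwh43 (0.74) and Efnb1 (0.71). For Tgfa, Cdo1, Ngef and Itga6 led at 0.79, 0.79 and 0.78, and for Egfr Eif6, Sh3d19 and Syt16 at 0.78, 0.77 and 0.74. Btc (Tln2, 0.76), Erbb2 (Amd1, 0.69) and Areg (Abcc3, 0.67) had weaker partners. These values describe the class sums and carry no test.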

How the data were processed

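Per the labels and the study's methods, the authors aligned inDrop reads to GRCm38 with dropEst and deposited raw UMI counts per cell barcode, 1 table for each of 5 libraries; aligner settings were not given in the sources used here. Cells with at least 500 genes and at most 15% mitochondrial counts were kept. Treated and normal cells were clustered separately (scanpy 1.11.5, 2000 variable genes without members or pathway genes, 20 principal components, 20 neighbours, Leiden resolution 1), and clusters were named from marker lists. Counts were summed per class and library, and classes with at least 10 cells in a library were tested with edgeR 4.0.16 (filterByExpr, TMM, quasi-likelihood, library as a block because both classes came from the same library) under R 4.3.3, after testing on simulated data. Alternatives were DESeq2 1.42.0, no count filter, other clusterings, doublet removal, stricter class membership, no block and leaving out each library. Within a library, differences used log2(CPM + 10). Members, marker lists and pathway lists were chosen with earlier results of these data known. All 9 members and the pathway genes called in squamous-like cells were named by rule, and other pathway genes after their values were seen. The libraries held 5132360 to 16904947 UMIs over all barcodes and 5124405 to 16786230 in kept cells. Poisson and binomial intervals at 95% cover counting error only. In the late against early comparison, Btc in squamous-like cells did not pass the count filter.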

Additional observations from a re-analysis of the deposited data

Results flagged for a closer look

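The late against early difference of Btc had opposite signs in the epithelial classes. In log2(CPM + 10), late columnar cells were lower than early ones in both library structures (-0.25 with the single index and -0.39 with the dual index). Late squamous-like cells were higher in both (0.75 and 0.10). The mean columnar difference minus the mean squamous-like one was -0.74. This difference was not tested, and the squamous-like value of day 1 replicate 1 was 0 counts. Of 18 groups of 4 within-library differences, 0 had a library far from the others, where chance gives about 1 in 20.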

How the results depend on the processing

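Of 520 alternative values of member differences, 456 kept their direction and their side of the threshold, 23 lost a call, 8 gained one and 33 changed sign. Nrg1 was called in each alternative of the 3 class comparisons, and Erbb3 fell in all of them but was not called in squamous-like cells without the replicate block. Without the replicate block by library, 968 genes (8.37% of those tested) and 1 member were called in squamous-like cells. In CAF-like cells 887 genes (10.1%) and 3 members were called, and in macrophage-like cells 2170 genes (22.6%). Leaving out 1 library gave 1572 (without day 6) to 2593 genes in squamous-like cells. In CAF-like cells it gave 3 members without day 1 replicate 2 or day 6, beside 12.1% and 13.9% of genes. The most, 6 members, came without day 3, beside 21.3% of genes. In CAF-like cells 2804 genes were called with no filter on low counts and 649 with only cells of the highest own marker score. There 3 members were called with that score, beside 7.46% of genes, and 3 after removal of the highest Scrublet scores, beside 14.3%.

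Late against early, columnar cells gave 53 genes with DESeq2, 246 without a filter, 3 with the replicate block by library structure, and 0 to 661 (without day 3; 15 without day 6) when 1 library was left out. Squamous-like cells gave 20, 96 and 79 genes under these settings and 10 to 78 with 1 library left out. The member calls stayed at 0 under edgeR and DESeq2.

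Differences near 0 changed sign, and the cause was not tested. For Hbegf in squamous-like cells the values were 0.044 without the block, 0.016 at Leiden resolution 0.5, 0.37 with the Wif1 cluster counted as columnar (chosen after seeing the data) and -0.17 to 0.10 with 1 library left out. For Egfr in CAF-like cells they were 0.0075 without the block, 0.085 with the Wif1 cluster and -0.44 to 0.11 with 1 library left out. For Areg in macrophage-like cells they were -0.10 without a filter, -0.85 with the highest own score (called), -0.041 without the columnar cluster closest to free RNA (also chosen after seeing the data) and -0.26 to 0.56 with 1 library left out. Late against early in columnar cells, counting the Wif1 cluster as columnar gave 0.78 for Areg, 0.74 for Hbegf, -0.10 for Tgfa and 0.59 for Egfr. Leaving out the cluster closest to free RNA gave 0.29 for Areg, 0.28 for Hbegf and 0.27 for Egfr, and the structure block gave 0.078 for Egfr. With 1 library left out the columnar ranges were -0.20 to 0.090 for Areg, -0.21 to 0.15 for Hbegf, -0.10 to 0.43 for Tgfa, -0.18 to 0.31 for Nrg1 and -0.50 to 0.76 for Egfr. The squamous-like ranges were -0.0047 to 0.95 for Areg, -0.80 to 0.23 for Hbegf, -1.497 to 0.27 for Nrg1 and -0.45 to 0.071 for Egfr.

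With only cells of the highest own marker score, normal columnar cells carried 741 CPM of Areg and 1205 CPM of Hbegf. Columnar cells limited to clusters with a columnar marker among the 10 leading genes were not run, since 1 cluster, all of it from day 6, was left.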
